A study of Homo sapiens with 6 samples.

Results

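The 4 HOX clusters were examined in the small cell lung cancer line H69M and in NCI-H69 (H69), the line it was derived from, in a study of immunogenic subpopulations of this cancer. Chromatin fixed with formaldehyde was precipitated with an antibody against acetylated lysine 27 of histone H3 (H3K27ac) or against its trimethylated form (H3K27me3), and sequenced. The groups with a peak list are H69M H3K27ac, H69M H3K27me3, H69 H3K27ac and H69 H3K27me3, with 1 library in each, and the input libraries of both lines were not analysed here. The labels give no treatment at harvest, no passage and no clone for either line, and both share the origin of H69.

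The members are all peaks that overlap 1 of 4 windows on hg19, namely HOXA at chr7:27125000-27255000, HOXB at chr17:46600000-46815000, HOXC at chr12:54325000-54455000 and HOXD at chr2:176940000-177060000. The windows were defined by position, and they were chosen with earlier results of these data known. They held 304 of the 148837 peaks of the 4 lists. H3K27ac contributed 62 peaks in H69M and 78 in H69. H3K27me3 contributed 82 peaks in each line.

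HOX genes encode homeobox transcription factors that give cells a position along the body axis. The genes of a cluster lie in a row, numbered by paralog group, and the low groups act toward the head while the high groups act toward the tail and the ends of the limbs. Acetylation of lysine 27 goes with active promoters and enhancers, whereas its trimethylation is placed by Polycomb repressive complex 2, which keeps HOX genes silent where they are not used. One lysine cannot carry both modifications at once, and HOX clusters are the classic place where the marks divide a gene row into an active and a silent part.

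In the RefSeq gene table all 38 HOX genes considered here were found. With rising coordinate, HOXA2 comes before HOXA3, HOXA4, HOXA5, HOXA6, HOXA7, HOXA9, HOXA10, HOXA11 and HOXA13 on chromosome 7. On chromosome 17 the row runs from HOXB1 and HOXB2 through HOXB3, HOXB4, HOXB5, HOXB6, HOXB7, HOXB8 and HOXB9 to HOXB13. On chromosome 12 it runs the other way, from HOXC13, HOXC12 and HOXC11 through HOXC10, HOXC9 and HOXC8 to HOXC6, HOXC5 and HOXC4. Chromosome 2 likewise starts with HOXD13, HOXD12 and HOXD11, passes HOXD10, HOXD9, HOXD8, HOXD4 and HOXD3, and ends with HOXD1. This table is on GRCh38.p14 and the peaks are on hg19, so its order of genes is background and no peak was assigned to a gene. Positions are therefore given as hg19 coordinates and as the distance from the window edge on the side of paralog group 13.

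RefSeq promoter sequences (GRCh38.p14, 250 bases before to 50 bases after a start) were matched for 20 of the 38 genes, some with several starts. One promoter per cluster is shown because Polycomb in mammals gathers at starts rich in the dinucleotide CG. HOXA13, which patterns the limb end, and HOXD13, its paralog, stand for the group 13 side. HOXB1, needed in the hindbrain, and HOXC4 stand for the other side. Capitals mark each CG, and the coordinates are not comparable with those of the peaks.
HOXA13 (chr7:27200042-27200341, minus strand): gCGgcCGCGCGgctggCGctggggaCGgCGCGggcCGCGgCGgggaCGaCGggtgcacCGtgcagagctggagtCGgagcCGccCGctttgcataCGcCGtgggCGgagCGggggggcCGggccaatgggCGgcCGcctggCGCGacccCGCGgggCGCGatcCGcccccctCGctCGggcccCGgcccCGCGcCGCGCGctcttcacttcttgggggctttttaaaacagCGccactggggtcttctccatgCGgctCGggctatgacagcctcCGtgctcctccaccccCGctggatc
HOXB1 (chr17:48530962-48531261, minus strand): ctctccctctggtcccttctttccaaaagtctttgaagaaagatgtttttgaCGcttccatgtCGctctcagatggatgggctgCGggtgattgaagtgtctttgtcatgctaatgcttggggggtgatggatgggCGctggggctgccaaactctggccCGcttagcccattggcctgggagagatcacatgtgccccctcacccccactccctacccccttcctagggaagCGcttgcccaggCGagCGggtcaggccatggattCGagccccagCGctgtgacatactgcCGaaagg
HOXC4 (chr12:54016638-54016937, plus strand): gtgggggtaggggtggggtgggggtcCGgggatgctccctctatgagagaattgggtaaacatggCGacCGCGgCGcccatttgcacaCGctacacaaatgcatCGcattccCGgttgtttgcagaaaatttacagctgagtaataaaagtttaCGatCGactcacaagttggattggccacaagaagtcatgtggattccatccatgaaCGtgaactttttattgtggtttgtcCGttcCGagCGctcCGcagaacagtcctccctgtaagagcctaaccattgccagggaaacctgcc
HOXD13 (chr2:176092471-176092770, plus strand): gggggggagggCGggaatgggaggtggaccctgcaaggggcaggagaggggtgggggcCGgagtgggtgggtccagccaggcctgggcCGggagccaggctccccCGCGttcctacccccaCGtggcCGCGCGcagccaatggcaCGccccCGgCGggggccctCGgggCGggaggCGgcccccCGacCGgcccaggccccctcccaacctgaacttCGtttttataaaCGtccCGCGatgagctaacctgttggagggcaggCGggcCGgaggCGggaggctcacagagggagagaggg

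The 300 bases hold 44 CG in HOXA13, 11 in HOXB1, 15 in HOXC4 and 24 in HOXD13. The 27 promoter entries of the 20 genes had a median of 22 CG, with 0 to 44 in an entry. Among them 85.2% held at least 10 CG, against 56.4% of all 35116 promoters. HOXA3 and HOXA10 were the genes with several entries, HOXA3 with the most, so the share counts entries and not genes. Of the 27 entries 16 were of HOXA, 8 of HOXD, 2 of HOXC and 1 of HOXB. The share thus rests mostly on HOXA and HOXD, the clusters with few or no H3K27me3 peaks. The entries of HOXB and HOXC belong to HOXB1, HOXC4 and HOXC5. No promoter was matched for the side of these clusters that carried H3K27me3. CG reads the same on both strands, and HOXC4 and HOXC5 share 1 entry sequence. A match is a description of these letters and was not set against the peaks.

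Every list is 1 library, so no difference between H69M and H69 has a replicate check and no p-value is given. Read depth is unknown, and the lists differ in size over chromosomes 1 to 22 and X. H3K27ac had 51091 peaks in H69M and 38255 in H69, and H3K27me3 had 37853 and 21638. Over these whole lists the covered length in H69M was 1.59 times that of H69 for H3K27ac and 1.62 times for H3K27me3. The score of a peak is the authors', starts at about 50, piles up at 3100 and was used to rank or filter peaks within a list. Where scores, their medians or counts at 3100 are given for both lines, they are set side by side only as listed. The share of weak peaks was high for H3K27me3, with 81.9% of the H69M list and 86.2% of the H69 list under a score of 100.

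HOXB carried H3K27me3 on the group 13 side and H3K27ac mostly on the other side, in H69M and in H69. HOXC carried H3K27me3 in its 2 segments nearest group 13 of 4 equal ones, and H3K27ac in all 4 segments in H69M and in the other 3 segments in H69. HOXA carried H3K27ac in parts of its whole length, with 1 H3K27me3 peak in H69M and 4 in H69. HOXD carried H3K27ac alone. HOXB and HOXC were the clusters with more than 4 H3K27me3 peaks in a line. In both, the outermost H3K27me3 peak lay nearer the group 13 side in H69M than in H69. In HOXB the outer H69 peaks stood apart from those nearer HOXB13, and H69M had weak peaks in the gap.

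**Figure D1:**
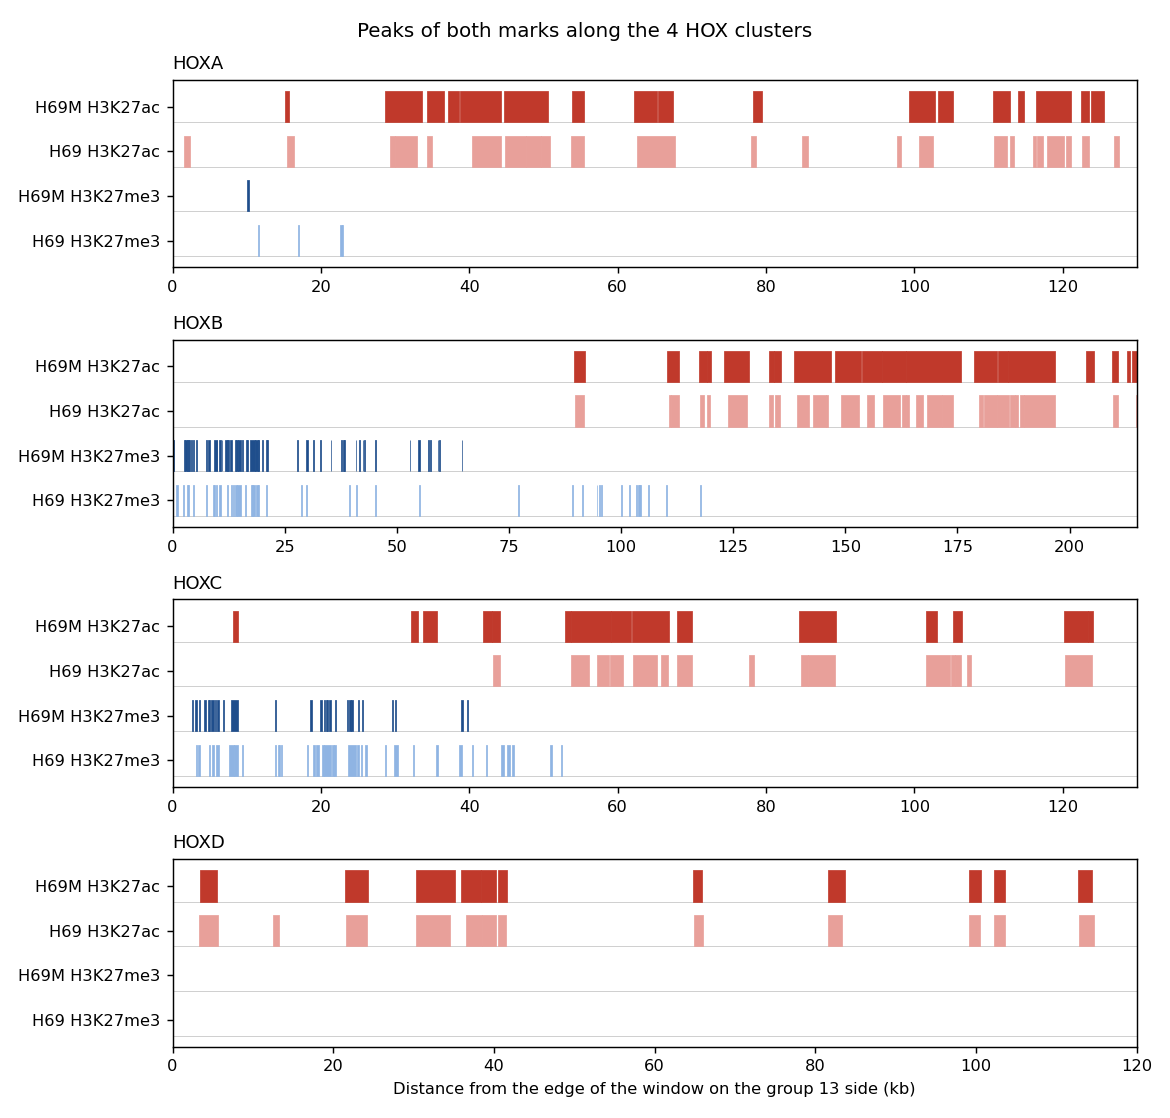
Peaks of each list along the 4 clusters, as bars at the distance in kb from the window edge on the group 13 side, with H69M above H69 for each mark. The outermost H3K27me3 peak of HOXB reaches 64.6 kb from that edge in H69M and 117.9 kb in H69, and HOXD holds no H3K27me3 peak.

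The HOXB window was divided into an acetylated and a trimethylated part. Which HOX genes lie in each part was not determined, since no peak was assigned to a gene. In H69M its 19 H3K27ac peaks covered 74.8 kb (34.8% of the 215 kb window), and in H69 28 peaks covered 53.6 kb (24.9%), a ratio of 1.40 of H69M over H69, below the 1.59 of the whole list. The last H3K27ac peak toward HOXB13 ended at 46725452 in H69M and at 46725219 in H69. Beyond it lay no H3K27ac in either line, over 89.5 kb in H69M and 89.8 kb in H69 up to the window edge. All 53 H3K27me3 peaks of H69M lay beyond it, 52 wholly inside the stretch and 1 across the window edge. Of the 43 of H69, 30 lay inside the stretch and 13 on the acetylated side of it.

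In 4 equal segments of the HOXB window counted from the group 13 side, H3K27ac covered 0%, 4.38%, 65.7% and 69.2% in H69M, against 0%, 3.83%, 46.0% and 49.9% in H69. H3K27me3 covered 22.4%, 2.23%, 0% and 0% of the same segments in H69M, against 13.1%, 5.74%, 0.748% and 0% in H69. So the segment on the HOXB13 side held more H3K27me3 in H69M than in H69, and the next segment held less.

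The difference in reach of H3K27me3, set by the outermost peak of each line, was 53.3 kb in HOXB. In H69M the peak farthest from the HOXB13 side started at 46750434, and in H69 it started at 46697130. Between these points H69M had no peak and H69 had 15 over 3.25 kb. These 15 had scores of 52.7 to 129.4 with a median of 66.2, and 3 of them reached 100. The one nearest HOXB13 ended at 46737991, and the next H69 peak began at 46759844. In that gap H69M listed peaks from 46750434 to 46758054, with scores of 50.6 to 73.3, none of which reached 100. By these weak peaks the listing nearer HOXB13 extended farther out in H69M, whose list is also the longer one. With only peaks of a score of 100 or more the difference was 62.8 kb, and under equal numbers of peaks (the strongest of the longer list, as many as the shorter holds) it was 58.3 kb.

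Nearer HOXB13, the strongest H3K27me3 peak of H69M lay at 46796600 to 46797656 with a score of 542.8 and a width of 1057 bp. It overlapped 3 H69 peaks. The strongest of H69 lay at 46799837 to 46800618 with a score of 266.3 and overlapped 2 H69M peaks. The total H3K27me3 length of HOXB was 13.2 kb in H69M and 10.5 kb in H69, a ratio of 1.26 of H69M over H69 where the whole lists gave 1.62. It turned to 0.987 under equal numbers of peaks and was 1.81 with a score of 100 or more.

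The acetylated part of HOXB was listed as fewer and longer peaks in H69M. Its median peak width was 2782 bp in H69M and 1366 bp in H69. The longest H69M peak, at 46639234 to 46651499 (12266 bp, score 3100), overlapped 4 H69 peaks, which covered 67.1% of it. A second, at 46618258 to 46628673 (10416 bp, score 3100), overlapped 5 H69 peaks covering 91.1% of it. A peak at 46668201 to 46676502 overlapped 3 H69 peaks that covered 72.6%. All 28 H69 peaks overlapped an H69M peak. Of the 19 H69M peaks 2 had no counterpart, against 24739 of 51091 in the whole H69M list. The 2 lay at 46601462 to 46602148 (score 63.8) and at 46609526 to 46611325 (score 147.9), on the HOXB1 side. At the ceiling of 3100 stood 10 peaks in H69M and 5 in H69.

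In HOXC the marks met inside the cluster. H3K27ac was listed as 15 peaks over 33.1 kb in H69M and 15 peaks over 26.8 kb in H69. The ratio of 1.24 was below the 1.59 of the whole list. H3K27me3 was listed as 28 peaks over 6.49 kb in H69M and 35 peaks over 10.6 kb in H69, a ratio of 0.612, where the whole lists gave 1.62. HOXC13, which acts in hair and nail, and HOXC12 and HOXC11 lead the row on the side that carried H3K27me3.

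Segments of the HOXC window from the group 13 side were covered by H3K27ac over 3.25%, 51.4%, 27.3% and 19.9% in H69M, against 0%, 29.3%, 25.9% and 27.2% in H69. H3K27me3 covered 18.99%, 0.972%, 0% and 0% in H69M, against 25.3%, 7.30%, 0% and 0% in H69. The second segment thus held more H3K27ac and less H3K27me3 in H69M, and the first held less H3K27me3 by a like number of percentage points.

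H3K27me3 reached 39.9 kb from the HOXC13 edge in H69M and 52.5 kb in H69, a difference of 12.7 kb. The last H69M peak ended at 54364881 and was weak (137 bp, score 51.2). Beyond it H69 had 7 peaks with scores of 62.0 to 218.3, and 3 of these reached 100. The strongest of the 7 lay at 54370093 to 54370492 with a score of 218.3. The others that reached 100 lay at 54369272 to 54369631 (183.7) and at 54375900 to 54376203 (145.6). The difference in reach grew to 22.5 kb under equal numbers of peaks and to 26.8 kb with a score of 100 or more.

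The strongest H3K27me3 peaks of HOXC differed in place between the lines. In H69M it was the peak at 54332875 to 54333799 with a score of 784.4, and H69 peaks with scores of 398.2 and 254.2 overlapped it. In H69 it was the peak at 54348682 to 54349791 with a score of 669.5, where H69M had 3 peaks, of which the strongest had 168.4. Scores of different lists are set side by side here only as listed.

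**Figure D2:**
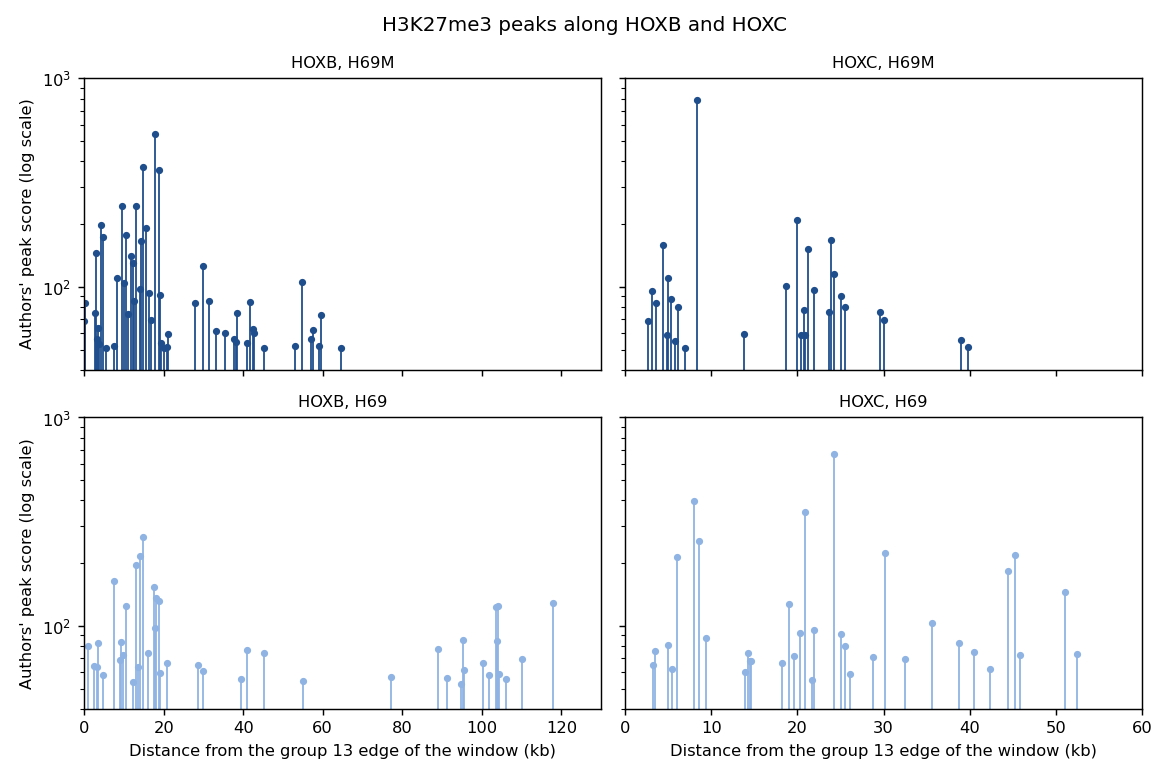
Authors' score (log scale) of each H3K27me3 peak of HOXB and HOXC by the distance of its middle from the group 13 window edge in kb, with H69M in the upper row and H69 in the lower. The 15 HOXB and 7 HOXC peaks of H69 that lie farther out than any H69M peak have scores of at most 129.4 and 218.3.

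H69M also listed H3K27ac peaks in HOXC that H69 did not. Of the 15 H69M peaks 5 had no counterpart, against 24739 of 51091 in the whole H69M list. All 5 lay in the 2 segments nearest HOXC13. They stood at 54333156 to 54333865 (score 102.05), 54357154 to 54358080 (144.5), 54358771 to 54360695 (339.4), 54366893 to 54368092 (339.2) and 54377911 to 54378695 (110.3). Of the 7 H69 H3K27me3 peaks beyond the reach of H69M, 1 lay under H69M H3K27ac. The H69M list thus began at 54333156, while the first H69 peak began at 54368246. Of the 15 H69 peaks 2 had no counterpart, at 54402719 to 54403377 (176.7) and 54432083 to 54432645 (57.0). In the whole H69 list 8623 of 38255 had none.

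Those H69M peaks lay in part on ground that carried H3K27me3 in H69. Of the 5, 4 overlapped an H69 H3K27me3 peak. At 54357154 to 54358080 it was a peak with a score of 69.01 that lay inside with its whole 231 bp, and at 54366893 to 54368092 a peak with a score of 62.0 and 176 bp. At 54358771 to 54360695 a peak with a score of 103.1 shared 222 bp. None of these 3 H69 H3K27me3 peaks overlapped an H69M H3K27me3 peak. How many H3K27ac peaks found only in H69M overlapped H69 H3K27me3 over the whole list was not counted. Whether 4 of 5 is more than elsewhere is therefore unknown.

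The site at 54333156 to 54333865 was different, since H3K27me3 was listed there in both lines. It was the only site of the 4 clusters where H69M listed both marks, over 644 bp, under its strongest HOXC H3K27me3 peak (784.4) and a weak H3K27ac peak (102.05). H69 listed both marks at 2 sites, both in HOXB, over 431 bp in all. The H3K27me3 peaks there had scores of 129.4 at 46697130 to 46697325 and 56.0 at 46723516 to 46723763, and neither had an H69M counterpart. Both also lay under H69M H3K27ac peaks, with scores of 275.3 and 3100.

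Counted over the clusters, 7 of the 82 H69 H3K27me3 peaks lay under H69M H3K27ac (8.54%, exact 95% Clopper-Pearson interval 3.50 to 16.8), against 4.63% of the whole H69 list (4.35 to 4.92), and the interval of the clusters holds the value of the list. Under H3K27ac found only in H69M lay 5 of the 82 (6.10%, 2.01 to 13.7), all in HOXC, against 2.95% of the list, which this interval holds too. In the other direction 0 of the 82 H69M H3K27me3 peaks lay under H69 H3K27ac (0 to 4.40%), against 2.78% of the whole H69M list, again inside the interval. These intervals cover counting error only and treat neighbouring peaks as independent. With a score of 100 or more, 4 H69 peaks lay under H69M H3K27ac.

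HOXA was acetylated in blocks in each of its 4 segments. H3K27ac was listed as 17 peaks over 45.3 kb (34.8% of the 130 kb window) in H69M and as 23 peaks over 33.99 kb (26.1%) in H69. The ratio of 1.33 was below the 1.59 of the whole list. From the group 13 side the segments were covered over 13.7%, 64.6%, 11.3% and 49.8% in H69M, against 14.8%, 45.4%, 12.9% and 31.5% in H69. The greater covered length of H69M lay in the second and the fourth segment, which were the most covered ones in both lines.

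As in HOXB, H69M peaks of HOXA joined several H69 peaks. The H69M peak at 27204399 to 27210374 (5976 bp, score 3100) overlapped 3 H69 peaks that covered 93.7% of it. The one at 27133813 to 27138617 (4805 bp, score 3100) overlapped 4, which covered 77.3%. In the reverse sense 1 H69 peak, at 27187227 to 27192331 (5105 bp), overlapped 2 H69M peaks.

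H69M peaks without a counterpart in HOXA numbered 4 of 17, against 24739 of 51091 in the whole H69M list. The strongest lay at 27149850 to 27151740 with a score of 1094, and the next at 27216430 to 27217877 with a score of 303.1. The others had scores of 166.8 and 57.9. H69 had 5 of 23 without a counterpart, against 8623 of 38255 in the whole H69 list. These 5 were all weak, with scores from 55.1 to 63.4, so each would drop out at a score of 100. The highest listed scores of H69, 3220 at 27152509 to 27154319 and 3175 at 27205340 to 27207344, lie above the ceiling of 3100 and cannot be ranked against the peaks on it.

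H3K27me3 in HOXA was nearly absent from both lists. H69M had 1 peak, at 27244751 to 27244924 with a score of 95.5, and H69 had 4, between 27232001 and 27243467, with scores from 53.3 to 86.3. All lay in the segment on the HOXA13 side, and none overlapped a peak of the other line. They covered 0.174 kb in H69M and 0.703 kb in H69. With so few weak peaks the ratio of 0.248 says little, and no HOXA peak of this mark had a score of 100 or more.

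HOXD had the H3K27ac ratio nearest to 1 of the 4 clusters. It held 11 H3K27ac peaks over 23.1 kb in H69M and 12 peaks over 22.2 kb in H69. The ratio was 1.04, where the whole list gave 1.59. All 11 H69M peaks overlapped an H69 peak. The 1 H69 peak without a counterpart lay at 176952515 to 176953291 with a score of 173.4. The segments from the group 13 side were covered over 16.5%, 33.8%, 10.8% and 15.9% in H69M, against 19.1%, 29.9%, 9.78% and 15.2% in H69.

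Peaks of HOXD lay at nearly the same places in both lines. The widest was at 176970348 to 176975130 (4783 bp) in H69M and at 176970267 to 176974553 (4287 bp) in H69, both with a score of 3100. The first peak, on the HOXD13 side, began at 176943377 in H69M and at 176943276 in H69, and the last, on the HOXD1 side, ended at 177054383 and 177054669. The median score was 2054 in H69M and 1753 in H69. A stretch without H3K27ac lay in the middle, over 23.2 kb in H69M and 23.3 kb in H69, with its first base at 176981563 and 176981531.

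No H3K27me3 peak was listed in the HOXD window in either line. The cluster lay inside a long stretch of chromosome 2 with no such peak in the lists analysed, 10.4 Mb long in H69M and 16.4 Mb long in H69. Only 19 of the 37830 stretches between neighbouring H3K27me3 peaks were longer in H69M, and 6 of the 21615 in H69. The lists cannot show whether the mark was missing there or lay under the caller's limit, and depth is unknown. On the side away from group 13, the nearest H3K27me3 peak outside HOXA lay 687 kb off in H69M and 934 kb off in H69. Outside HOXC it lay 30.9 kb off in H69M and 352 kb off in H69.

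**Figure D3:**
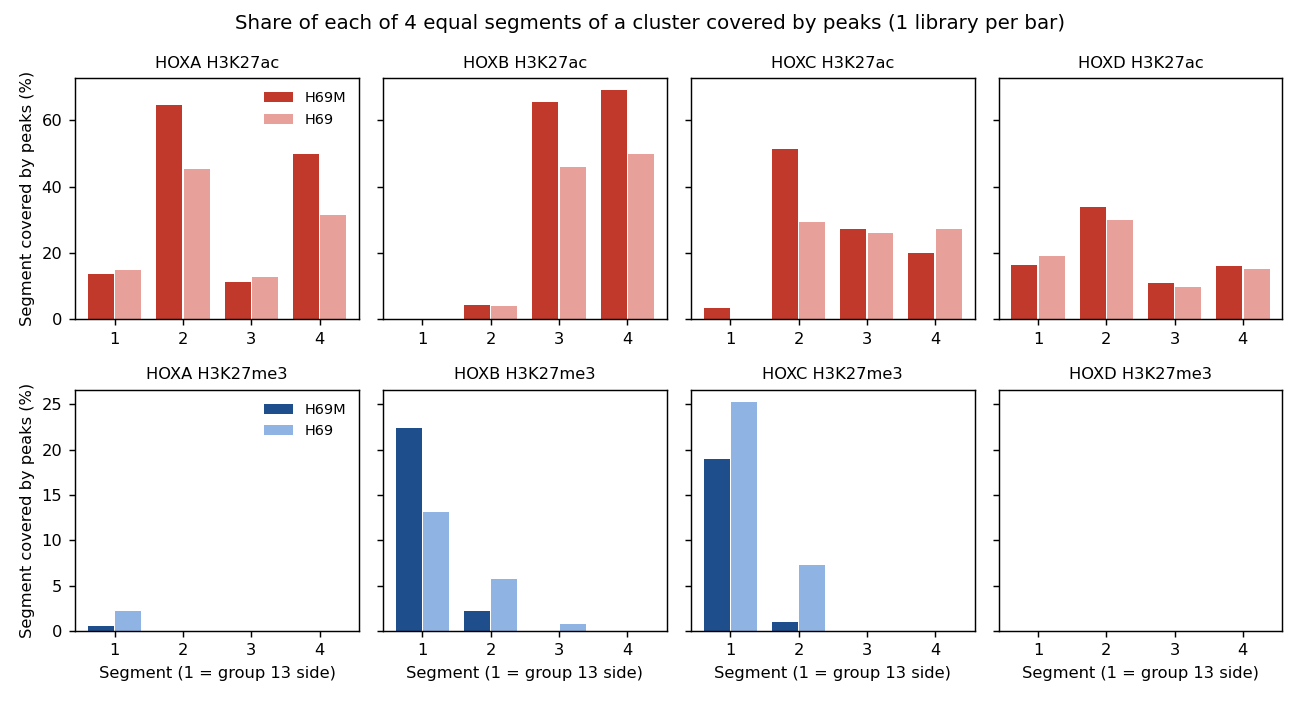
Share of each of 4 equal segments of a cluster covered by peaks, in percent, by segment from the group 13 side, with 1 library per bar and H69M left of H69. H3K27me3 covers 22.4% of the segment on the HOXB13 side in H69M and 13.1% in H69, while HOXD shows no bar for this mark. Over the whole lists the H3K27me3 length in H69M is 1.62 times that of H69.

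To set the clusters beside the genome, chromosomes 1 to 22 and X were cut into tiles of 5000 bp. A tile with a peak of a mark in either line was called higher or lower in H69M where its covered length differed by 2-fold or more, after adding 500 bp for H3K27ac or 100 bp for H3K27me3. For H3K27ac, 9 of the 72 cluster tiles were called higher (12.5%), against 32.5% of all tiles with the mark. Tiles called lower numbered 4 (5.56%), against 8.65% of all. The other 59 of the 72 tiles got no call. Covered length cannot exceed the tile, so a tile with more than 2250 bp in H69 could not be called higher, which held for 25 of the 72 cluster tiles (34.7%) and for 8.54% of all tiles. Among tiles that could be called higher, 9 of 47 in the clusters were (19.1%), against 35.5% over all chromosomes. Likewise 32 of the 72 (44.4%) could not be called lower, against 16.8% of all tiles.

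For H3K27me3 more cluster tiles were called lower than higher, unlike in the genome. Tiles called lower in H69M numbered 15 of 35 (42.9%), against 26.9% of all tiles with the mark. Tiles called higher numbered 8 (22.9%), against 49.4% of all. With a score of 100 or more the cluster counts were close, with 8 tiles called lower and 7 called higher. Neighbouring tiles are not independent, so these shares are descriptions.

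The calls of H3K27me3 were ordered along HOXB. All 8 of its tiles called lower lay between 46695001 and 46740000, and all 7 called higher lay between 46750001 and 46795000. Each of the 8 had 0 bp in H69M and lay beyond the outermost H69M peak, so their place restates the difference in reach. The lower ones included 46710001 to 46715000, with 0 bp in H69M and 1307 bp in H69. The higher ones included 46780001 to 46785000, with 608 bp in H69M and 15 bp in H69. In HOXC 5 tiles were called lower, at 54335001, 54355001, 54365001, 54370001 and 54375001, and 1 was called higher, at 54325001, next to the window edge. The lower ones from 54365001 on also had 0 bp in H69M and lay beyond its outermost peak.

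The 9 tiles called higher for H3K27ac lay in HOXA (2), HOXB (3) and HOXC (4). In HOXC all 4 lay in the 2 segments nearest HOXC13, and they included 54355001 to 54360000 with 2157 bp in H69M and 0 bp in H69. In HOXA the tile 27215001 to 27220000 had 4309 bp in H69M and 7 bp in H69, with the highest log2 ratio of these tiles (3.25). The other HOXA tile called higher, 27150001 to 27155000, had 4501 bp in H69M and 1811 bp in H69. In HOXB the 3 tiles called higher, toward HOXB1, began at 46600001, 46610001 and 46635001, and none was called lower. HOXA had 2 tiles called lower, and HOXC and HOXD had 1 each.

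Tiles that hold both marks in either line numbered 10 in the clusters, 5 in HOXC, 4 in HOXB and 1 in HOXA. H3K27ac was called higher and H3K27me3 lower together in 2 of the 10, both in HOXC, at 54355001 to 54360000 and 54365001 to 54370000. Of the 2638 such tiles of the genome 14.2% had this pair of calls. The opposite pair was found in 0 of the 10, against 11.7% of the 2638. With 10 tiles these shares do not set the clusters apart from the rest.

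**Figure D4:**
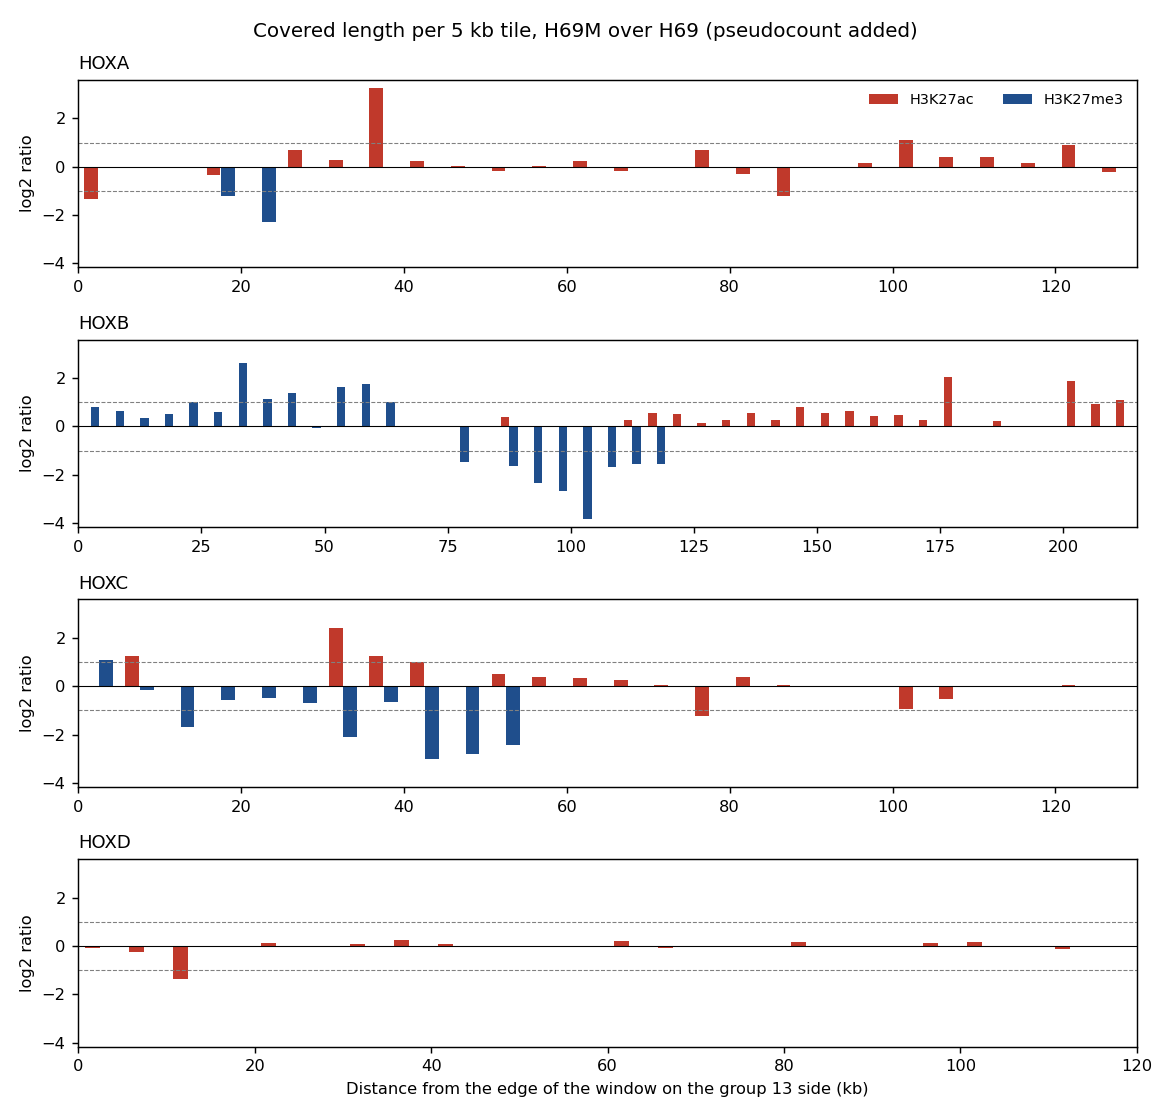
Log2 ratio of covered length, H69M over H69, in each 5000 bp tile with a peak, by distance in kb from the group 13 window edge, with dashed lines at 2-fold. The 8 HOXB tiles with lower H3K27me3 in H69M lie farther from the group 13 edge than the 7 tiles called higher. Each of the 8 has 0 bp in H69M and lies beyond its outermost peak.

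Cluster peaks were found in both lines more often than peaks at large. Of the H3K27ac peaks, 51 of 62 in H69M (82.3%, 70.5 to 90.8) and 70 of 78 in H69 (89.7%, 80.8 to 95.5) overlapped a peak of the other line. The whole lists gave 51.6% and 77.5%. Of the H3K27me3 peaks, 43 of 82 in H69M (52.4%, 41.1 to 63.6) and 38 of 82 in H69 (46.3%, 35.3 to 57.7) did so, against 18.9% and 32.6% of the lists. All shared H3K27me3 peaks lay in HOXB and HOXC. The intervals cover counting error only and treat neighbouring peaks of 1 library as independent. Scores differed as well, since the median H3K27ac score was 1361 in the H69M clusters and 517.0 in the H69 clusters, against 237.9 and 212.6 in the lists. Median H3K27ac widths were 2008.5 bp in the H69M clusters and 1333 bp in the H69 clusters, against 1149 and 966 bp in the lists. For H3K27me3 they were 173.5 and 204 bp, against 156 and 185 bp. The parts of score, width and spacing of peaks in the sharing were not tested. Shared meant an overlap of at least 1 bp, and no share of the whole lists is given under another definition. With a score of 100 or more, 40% of H69M and 50% of H69 H3K27me3 cluster peaks were shared. No whole-list share is given at that setting either.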

How the data were processed

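ChIP-seq peak lists of 4 libraries were used, 1 per line and mark. The submitters' processing notes name Bowtie2, SAMtools 0.1.19 and build hg19, with no role given for the tools. The deposited lists give position, a name with the word MACS and the authors' score. For its definition, the caller's version, its settings and the use of the input: not given in the sources used here. Values are presence, length and score of peaks; depth is unknown.

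Peaks on chromosomes 1 to 22 and X were counted with Python 3.11.15, pandas 2.3.3 and numpy 2.4.6; coordinates are 1-based. Covered length was cut at the window edges. An overlap of at least 1 bp with the other line's list made a peak shared. Intervals of shares are exact 95% Clopper-Pearson intervals (scipy 1.17.1). With 1 library per group no test was made. The tile procedure was run on simulated data with 1 peak per tile and returned the planted lengths and calls. All planted differences lay above the 2-fold limit and all other tiles were equal. This checked the code only, and peaks that cross tiles were not tried. Peaks named were, per cluster, mark and line, the highest scoring, the first and last, and those in called tiles; others, such as those without a counterpart or joining several peaks, were chosen after their values were seen. Members, windows and comparisons were chosen with earlier results of these data known. The gene table was on another build, so the planned values per gene were not made. Alternatives were equal numbers of peaks, a score minimum, wider windows, other tiles, folds and pseudocounts, and other definitions of overlap.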

Additional observations from a re-analysis of the deposited data

How the results depend on the processing

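No paired analysis was possible because each group holds 1 library. Over the alternatives run, 48 of 68 recomputed values stayed within 1.5 times the reported value or, for shares, within its interval, and 20 did not. The HOXB H3K27me3 ratio of 1.26 turned to 0.987 under equal numbers of peaks and was 1.81 with a score of 100 or more. The HOXA H3K27me3 ratio could not be computed with a score of 100 or more, nor that of HOXD under any setting. H3K27ac tiles called higher numbered 5 with tiles of 10000 bp, 15 at 1.5-fold and 4 with doubled pseudocounts, and those called lower 2 with a score of 100 or more, 2 with tiles of 10000 bp and 0 with doubled pseudocounts. H3K27me3 tiles called higher numbered 3 under equal numbers of peaks, 4 with tiles of 10000 bp and 4 with doubled pseudocounts, and those called lower 8 with a score of 100 or more (beside 7 called higher) and 9 with tiles of 10000 bp. H69 H3K27ac cluster peaks were shared to 96.7% with a score of 100 or more. H69M H3K27me3 cluster peaks were shared to 40% with a score of 100 or more, 37.8% with an overlap of 50% of the peak and 81.7% with a counterpart within 1000 bp, and those of H69 to 65.9% with the last. Ground of both marks in H69 was 183 bp with a score of 100 or more. The difference in reach in HOXC, 12.7 kb, was 22.5 kb under equal numbers of peaks and 26.8 kb with a score of 100 or more. The reach of H3K27me3 and the H3K27me3 peaks under H3K27ac of the other line were added with their alternatives after the data were seen. The causes were not tested; tiles of 10000 bp are fewer by construction. Without read counts, depth limits every comparison between the lines.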
